A study of Mus musculus with 16 samples.

Results

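The genes described here are the enzymes and partner proteins that remove superoxide and peroxides and keep thiols reduced: the superoxide dismutases with Sod1, catalase, the glutathione peroxidases, the peroxiredoxins, the thioredoxin and glutaredoxin systems, the enzymes of glutathione metabolism, and Park7. Members were taken by symbol, as all probe sets whose single symbol in the platform annotation belonged to one of these families or named genes. That gave 52 probe sets for 34 genes, of 4929 genes with a single symbol on 7053 of the 7729 probe sets in the deposited table. 37 of these probe sets, for 24 genes, were bright enough to be tested, and the other 15 were not. A further 7 probe sets that share a member symbol with another gene were left out, and Gclm, Gss, Hmox1, Nqo1 and Sod3 were not analysed here.

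Expression was measured on Affymetrix arrays in gastrocnemius, a calf muscle, and triceps, of the upper foreleg, from female C57BL/6 mice aged 7 weeks, an age the series calls presymptomatic. The SOD1-G93A mice carried human SOD1 with the G93A substitution in addition to their own Sod1, and the control mice were non-transgenic (NTg). Both muscles of 4 mice of each genotype gave 16 arrays in 4 groups of 4, each array holding the RNA of a whole muscle. The promoter that drives the transgene is not given in the sources used here. In bulk muscle, fewer cells of a type and less RNA per cell cannot be told apart.

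Superoxide dismutases turn superoxide into hydrogen peroxide: SOD1 works in the cytosol with copper and zinc, and SOD2 in the mitochondrial matrix with manganese. Catalase, glutathione peroxidases and peroxiredoxins then remove the peroxide. The glutathione peroxidases and peroxiredoxins draw electrons from glutathione or thioredoxin, which are recharged with NADPH by glutathione reductase and thioredoxin reductase. Dominant SOD1 mutations such as G93A cause amyotrophic lateral sclerosis (ALS), a disease of motor neurons and the muscles they supply, and mice with the human mutant gene are a standard model of it.

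The results turn on Sod1, Txnip, Gpx3 and Gsto1, and the 250 bases before the first RefSeq transcription start of each are shown because transcript levels are what was measured. They are from RefSeq on GRCm38.p6, all on the plus strand: Sod1 at chr16:90220512-90220761, Txnip at chr3:96557707-96557956, Gpx3 at chr11:54902604-54902853 and Gsto1 at chr19:47854723-47854972. Capitals mark letters that matched a motif on either strand: the antioxidant response element core TGACNNNGC, the GC box GGGCGG, the TATA box TATAAA, or a paired carbohydrate response element, taken as 2 copies of CACGNG with 5 bases between them. The last motif was chosen after the Txnip sequence had been read.
Sod1: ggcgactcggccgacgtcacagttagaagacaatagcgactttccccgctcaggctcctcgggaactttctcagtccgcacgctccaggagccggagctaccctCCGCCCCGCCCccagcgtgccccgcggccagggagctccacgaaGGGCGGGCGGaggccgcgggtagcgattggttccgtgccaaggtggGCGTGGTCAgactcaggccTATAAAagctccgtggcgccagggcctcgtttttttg
Txnip: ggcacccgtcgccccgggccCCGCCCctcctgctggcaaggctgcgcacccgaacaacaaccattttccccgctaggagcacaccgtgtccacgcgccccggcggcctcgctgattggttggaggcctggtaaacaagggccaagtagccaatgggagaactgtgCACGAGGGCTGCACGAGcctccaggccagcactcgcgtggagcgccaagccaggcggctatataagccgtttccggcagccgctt
Gpx3: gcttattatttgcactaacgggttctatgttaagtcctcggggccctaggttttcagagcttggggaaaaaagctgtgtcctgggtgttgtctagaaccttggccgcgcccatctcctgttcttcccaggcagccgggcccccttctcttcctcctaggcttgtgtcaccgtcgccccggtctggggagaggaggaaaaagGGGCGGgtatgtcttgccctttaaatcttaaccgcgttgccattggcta
Gsto1: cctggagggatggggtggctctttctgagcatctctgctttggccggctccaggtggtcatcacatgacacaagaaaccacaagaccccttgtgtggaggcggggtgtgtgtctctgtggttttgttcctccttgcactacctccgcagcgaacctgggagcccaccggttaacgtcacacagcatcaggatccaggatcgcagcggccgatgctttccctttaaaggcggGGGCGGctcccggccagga

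Such windows matched for 30 of the 34 member genes, 44 windows in all because some genes have several starts. The antioxidant response element core, the letters bound by NFE2L2 with small MAF proteins, stood in 4 of the 44 windows (9.09%), those of Gstm5, Sod1, Txndc5 and Txnrd1, against 10.2% of all 32851 RefSeq windows of this length. In Sod1 it lies on the minus strand, 56 to 48 bases before the start. GC boxes, which in Sod1 overlap one another in pairs, stood in 27 member windows (61.4%) against 32.7% of all windows. TATAAA stood in 4 member windows (9.09%), with Sod1 among them, against 12.4%. The paired carbohydrate response element stood in the Txnip window only among the members, and in 15 of all windows (0.0457%). These are matches of letters, and no binding was measured.

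Values are log2 signals of single probe sets, so a difference of 1 is a doubling. Array medians lay between 7.10 and 7.26. After the values had been seen, 3 triceps arrays were set aside as standing apart: NTg triceps replicates 1 and 2 and SOD1-G93A triceps replicate 2. In these, Ckm, muscle creatine kinase, read 12.76 to 13.02, against 13.84 to 14.51 in the other 5 triceps arrays and 13.97 to 14.71 in gastrocnemius. Without them only NTg triceps replicates 3 and 4 and SOD1-G93A triceps replicates 1, 3 and 4 remained. On all 16 arrays the members' median absolute genotype difference in triceps was 0.17, below its median SE of 0.21. Without the 3 arrays this difference changed sign for 17 of the 37 tested members, 13 of these going from above to below 0. The muscle difference changed sign for 20 in NTg, 6 in SOD1-G93A mice and 15 over both genotypes. The share of all tested probe sets that changed sign was not counted, so these counts are not particular to the members. The values without these 3 arrays are given beside the members described where the sign turned or a call was lost. NTg triceps replicate 2 was the highest or the lowest of the 16 arrays for 22 of the 37 tested members (59.5%), lowest for 14 and highest for 8, against 42.4% of all 4637 tested probe sets, while each other array was so for at most 7 members. As the map of deviations shows, its lowest readings were in Gstm1, Gsto1, Txn2 and Txnip and its highest in Txndc17, Txnl1 and Cat.

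**Figure D1:**
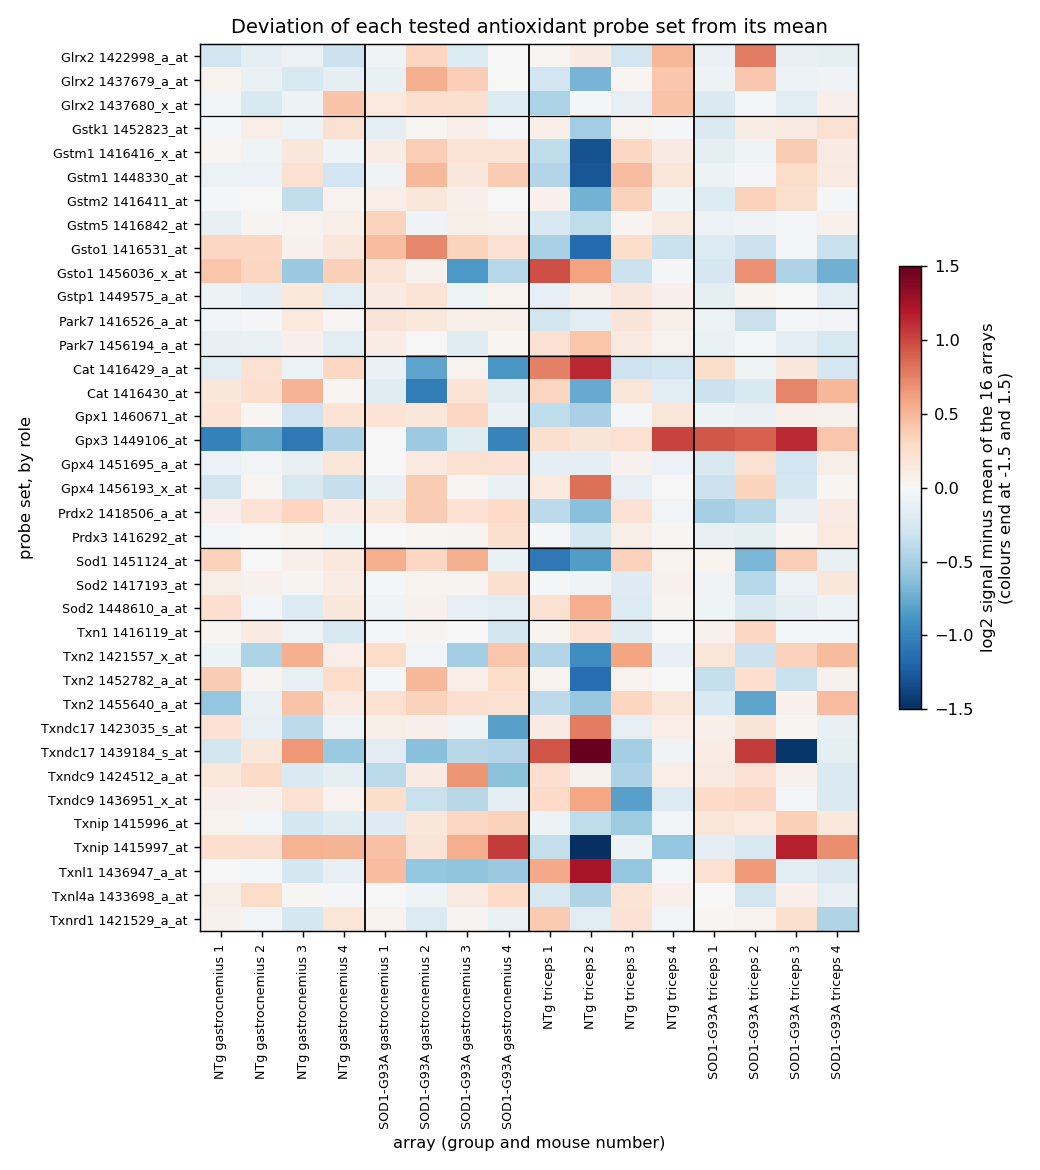
Log2 signal minus the mean of the 16 arrays (colour, ending at -1.5 and 1.5) for the 37 tested antioxidant probe sets (rows, by role) in each array (columns, by group and mouse number). NTg triceps 2 holds the extreme value of 22 members, and Gpx3 is low in gastrocnemius and high in triceps.

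Sod1, the endogenous gene of the enzyme that the transgene encodes in mutant human form, had 2 probe sets. On the brighter, 1451124_at, NTg gastrocnemius read 11.35, 11.01, 11.08 and 11.15 in replicates 1 to 4, and SOD1-G93A gastrocnemius 11.55, 11.31, 11.54 and 10.90. NTg triceps read 9.92, 10.16, 11.35 and 11.05, and SOD1-G93A triceps 11.06, 10.31, 11.37 and 10.89. The genotypes overlapped in both muscles, and the 3 lowest of all 16 readings, 9.92 to 10.31, were the 3 triceps arrays that stood apart by Ckm.

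The Sod1 level was not called between genotypes. SOD1-G93A minus NTg was 0.18 in gastrocnemius (SE 0.27, 95% interval -0.39 to 0.75, n = 4 per group, limma adjusted p = 0.999) and 0.28 in triceps (SE 0.27, interval -0.29 to 0.86, limma adjusted p = 0.994). Over both muscles it was 0.23 (SE 0.21, interval -0.21 to 0.67, limma adjusted p = 0.997). Leaving out single arrays moved the gastrocnemius difference between 0.10 (without SOD1-G93A replicate 1) and 0.32 (without SOD1-G93A replicate 4), and the triceps difference between 0.053 (without NTg replicate 1) and 0.53 (without NTg replicate 3). Each SE comes from the spread of all 4 groups together, so the triceps arrays enter the gastrocnemius SE. Without the 3 arrays that SE was 0.14 at the same gastrocnemius difference. The triceps difference was then -0.096 and that over both muscles 0.036. Whether the probes of 1451124_at also read human SOD1 transcript was not tested, so these values check no label. The other probe set, 1435304_at, was too dim to test and read 5.27 to 6.35 over the 16 arrays. In gastrocnemius it read 5.27, 5.68, 5.42 and 5.63 in NTg and 5.71, 5.79, 5.83 and 5.87 in SOD1-G93A mice. These groups did not overlap, as held for 2.7% of all tested probe sets, a share that does not cover dim ones such as this. Gpx7 1417836_at, also too dim to test, was without overlap in the other direction. It read 5.73 to 6.14 in NTg and 5.27 to 5.55 in SOD1-G93A gastrocnemius. In triceps, where the genotypes overlapped on Sod1 1435304_at, NTg read 5.32, 5.54, 6.35 and 6.35 and SOD1-G93A 6.04, 5.68, 5.47 and 6.18. Unlike 1451124_at, this Sod1 probe set was higher in triceps in 5 of 8 mice.

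**Figure D2:**
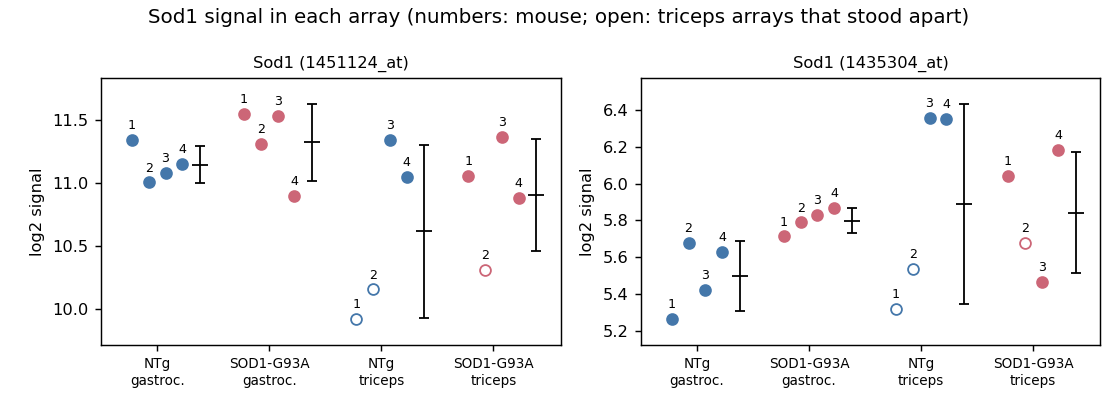
Log2 signal of both Sod1 probe sets in each array by group (points numbered by mouse, with the group mean and SD beside them; open points are the 3 triceps arrays that stood apart). On 1451124_at those 3 arrays read 9.92 to 10.31, and the 13 others 10.89 to 11.55.

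Between the muscles, Sod1 1451124_at was higher in gastrocnemius in 7 of 8 mice, by 0.47 over both genotypes (SE 0.19, n = 8 mice), and was not called (limma, unadjusted p = 0.0244, adjusted p = 0.162). The SEs of muscle differences given here come from a fit without a mouse term, which does not use the pairing. Within genotypes the difference was 0.53 in NTg (SE 0.27, limma adjusted p = 0.409) and 0.42 in SOD1-G93A mice (SE 0.27, limma adjusted p = 0.557). Without the 3 arrays it was 0.084 over both genotypes (limma adjusted p = 0.812) and -0.052 in NTg. The low Sod1 readings of triceps were all in arrays in which Ckm was low as well.

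Sod2, the mitochondrial enzyme, varied less. Its probe set 1417193_at had group means from 10.01 to 10.19, and SOD1-G93A minus NTg was -0.0024 in gastrocnemius (SE 0.12) and -0.043 in triceps (SE 0.12), the latter 0.077 without the 3 arrays. It was higher in gastrocnemius in 8 of 8 mice, by 0.15 (SE 0.08), and was not called (limma adjusted p = 0.278). The probe set 1448610_a_at read 9.18 to 9.93 in NTg triceps and 9.15 to 9.31 in SOD1-G93A triceps, a difference of -0.28 (SE 0.14, limma unadjusted p = 0.0644) that was -0.015 without the 3 arrays.

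Across all tested probe sets, limma called 0 of 4637 (0%) at an adjusted p under 0.05 in each of the genotype comparisons, and so 0 of the 37 members. At an unadjusted p under 0.05 stood 0 members in gastrocnemius, beside 103 of all probe sets (2.22%), and 3 in triceps, beside 118 (2.54%). Over both muscles 2 members did, beside 85 (1.83%), and for the difference between the muscles in the genotype effect 1 member did, beside 86 (1.85%). The members' median difference was 0.09 in gastrocnemius, with 24 of 37 above 0, where the median of all tested probe sets was -0.012. In triceps it was 0.025 with 22 above 0, beside 0.021 for all. Without the 3 arrays the triceps median of the members was -0.10, with 13 above 0, beside 0.015 for all. Also without them, 4, 4, 2 and 7 members stood at an unadjusted p under 0.05 in gastrocnemius, in triceps, over both muscles and for the difference of effects, beside 4.05%, 3.67%, 2.09% and 5.28% of all, and 0 were called (limma). The 7 were 1 probe set each of Cat, Txndc9, Glrx2, Gstm1 and Gstp1 and both of Park7. The median SE of a member's difference within a muscle was 0.21. Such an SE draws on all 4 groups, so leaving out triceps arrays changed it in gastrocnemius while the differences there stayed the same.

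**Figure D3:**
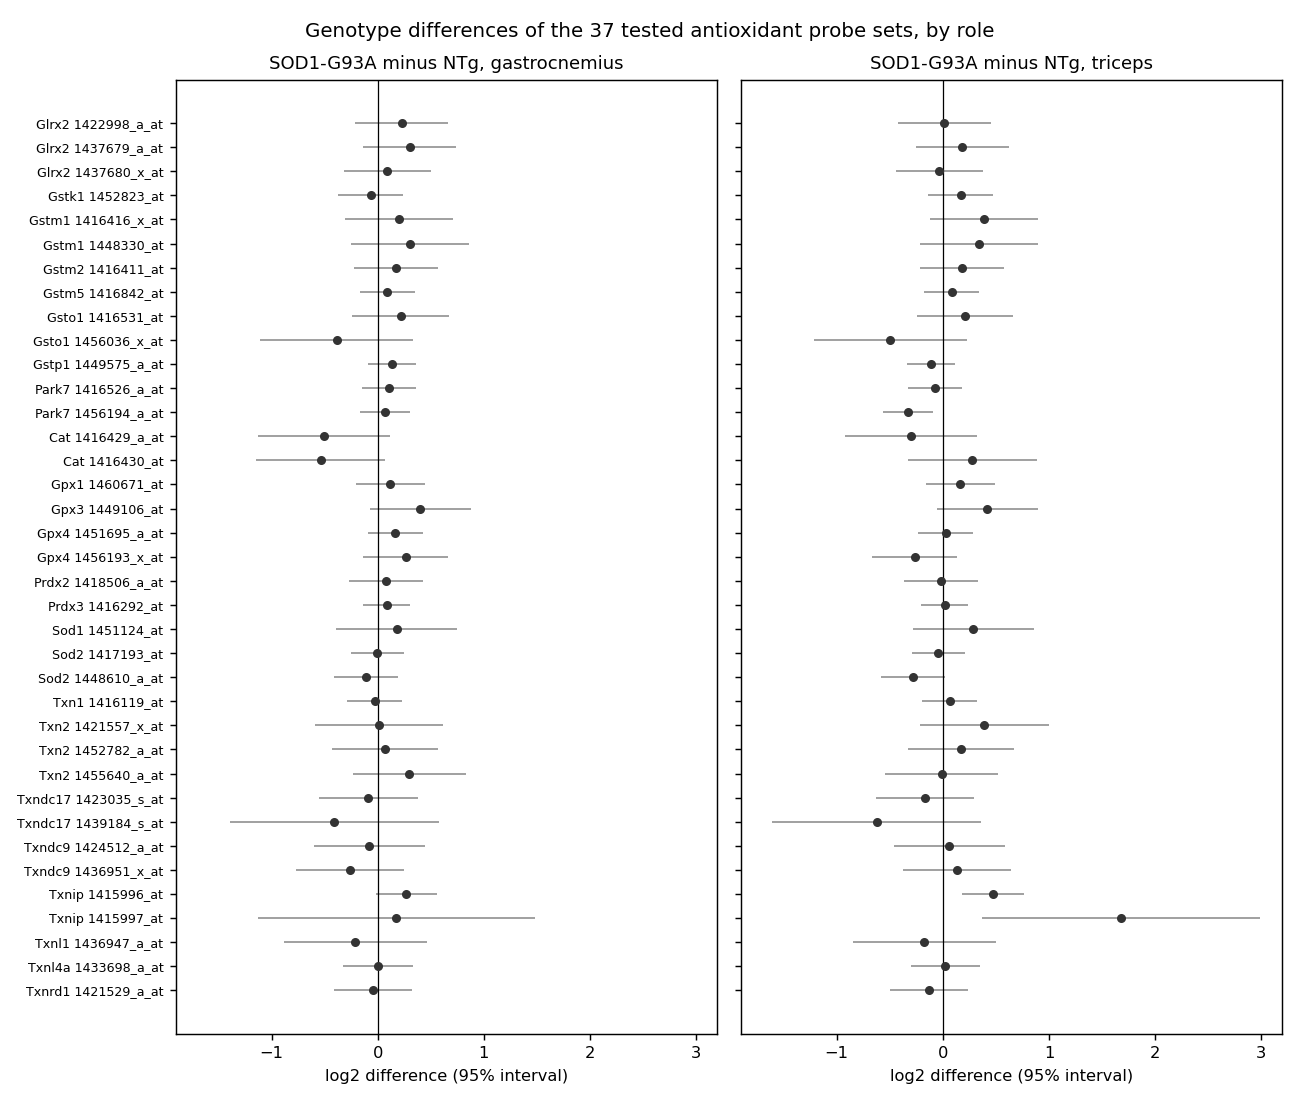
SOD1-G93A minus NTg log2 difference with its 95% interval for each tested probe set (rows, by role) in gastrocnemius and triceps. None was called, and the widest intervals are those of Txnip 1415997_at, equally wide in both muscles (0.37 to 2.98 in triceps).

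By role, the genotype differences within a muscle had no direction common to all roles. Both Park7 probe sets lay above 0 in gastrocnemius and below 0 in triceps, with or without the 3 arrays. Of the 8 tested peroxide-removing probe sets, 6 lay above 0 in gastrocnemius and 5 in triceps, where 3 did without the 3 arrays. Of the 13 of the thioredoxin system 6 and 8 did, and 8 in triceps also without them. Of the 8 glutathione S-transferase probe sets, whose enzymes join glutathione to reactive compounds, 6 lay above 0 in each muscle, between -0.39 and 0.30 in gastrocnemius and between -0.49 and 0.39 in triceps. In triceps 1 of the 8 lay above 0 without the 3 arrays (Gstk1, 0.036), so that the triceps count rests on them. All 3 probe sets of Glrx2, the mitochondrial glutaredoxin, lay above 0 in gastrocnemius (0.09 to 0.30) and 2 of 3 in triceps, where all 3 lay below 0 without the 3 arrays (-0.29 to -0.22). None of these was called.

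The smallest genotype p-values belonged to Txnip, which encodes a protein that binds and inhibits thioredoxin and restrains glucose uptake. On 1415996_at, NTg triceps read 10.25, 9.94, 9.79 and 10.28 in replicates 1 to 4, and SOD1-G93A triceps 10.51, 10.47, 10.68 and 10.48. The 4 transgenic readings lay above all 4 controls. In gastrocnemius NTg read 10.37, 10.28, 10.06 and 10.14 and SOD1-G93A 10.13, 10.50, 10.63 and 10.67, so that 3 of the 4 transgenic readings lay above the controls and 1 among them.

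The Txnip difference on 1415996_at was 0.47 in triceps (SE 0.14, limma unadjusted p = 0.00318), 0.27 in gastrocnemius (SE 0.14, unadjusted p = 0.0666) and 0.37 over both muscles (SE 0.11, 95% interval 0.15 to 0.59, unadjusted p = 0.00254). No adjusted p came near the threshold (limma, 0.994, 0.999 and 0.997). Without the 3 arrays it was 0.52 in triceps. Over all the alternative settings tried, the smallest adjusted p of any member in a genotype comparison was 0.542 (limma), for Txnip over both muscles with the replicate set as a fixed term.

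The other Txnip probe set, 1415997_at, gave the same direction with far more spread. NTg triceps read 8.26, 4.41, 8.54 and 8.03, and SOD1-G93A triceps 8.46, 8.39, 9.78 and 9.31. The reading of 4.41, in NTg triceps replicate 2, lay far below the rest, and the groups overlapped. The triceps difference of 1.68 (SE 0.62, limma unadjusted p = 0.015, adjusted p = 0.994) was 0.71 without that array and 0.90 (SE 0.30) without all 3, and the difference over both muscles fell from 0.93 to 0.45 without that array. In gastrocnemius the difference was 0.18 (SE 0.62, or 0.23 without the 3 arrays).

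Park7, or DJ-1, a protein that senses and protects from oxidative stress, was the only other member whose genotype groups did not overlap in triceps. On 1456194_a_at NTg triceps read 11.72, 11.91, 11.62 and 11.54, and SOD1-G93A triceps 11.39, 11.47, 11.36 and 11.25. All 4 transgenic readings lay below the controls, by 0.33 on average (SE 0.11, limma unadjusted p = 0.00827, adjusted p = 0.994), and the difference was -0.25 (SE 0.11) without the 3 arrays. Genotype groups without overlap were found for 2 of 37 members in triceps (5.41%, Txnip 1415996_at and Park7 1456194_a_at) beside 0.949% of all tested probe sets, and for 0 of 37 in gastrocnemius beside 2.7%.

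In gastrocnemius Park7 1456194_a_at read 11.37, 11.39, 11.56 and 11.33 in NTg and 11.60, 11.48, 11.31 and 11.52 in SOD1-G93A mice, a difference of 0.07 (SE 0.11). The genotype effect was thus higher in gastrocnemius than in triceps by 0.40 (SE 0.16, 95% interval 0.07 to 0.73, limma unadjusted p = 0.0215, adjusted p = 0.999) and by 0.31 without the 3 arrays, and the difference of effects was not called. The brighter Park7 probe set, 1416526_a_at, had 0.11 in gastrocnemius (SE 0.12) and -0.08 in triceps (SE 0.12), with a difference of effects of 0.18 (SE 0.17). These triceps and effect differences were -0.19 and 0.29 without the 3 arrays.

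Cat, catalase, which splits hydrogen peroxide in peroxisomes, had a lower group mean in SOD1-G93A gastrocnemius. On 1416430_at NTg gastrocnemius read 7.87, 7.95, 8.21 and 7.72, and SOD1-G93A gastrocnemius 7.52, 6.65, 7.91 and 7.52, a difference of -0.54 (SE 0.29, 95% interval -1.15 to 0.07, limma unadjusted p = 0.0799, adjusted p = 0.999). The groups overlapped by 1 reading, and the reading of 6.65 in replicate 2 was the lowest: without that array the difference was -0.29. In triceps NTg read 8.02, 6.94, 7.87 and 7.52 and SOD1-G93A 7.38, 7.46, 8.42 and 8.19, a difference of 0.28 (SE 0.29), and the difference of effects was -0.82 (SE 0.41, limma unadjusted p = 0.0624). The second Cat probe set, 1416429_a_at, had -0.50 in gastrocnemius (SE 0.30) and -0.30 in triceps (SE 0.30), the latter 0.35 without the 3 arrays.

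**Figure D4:**
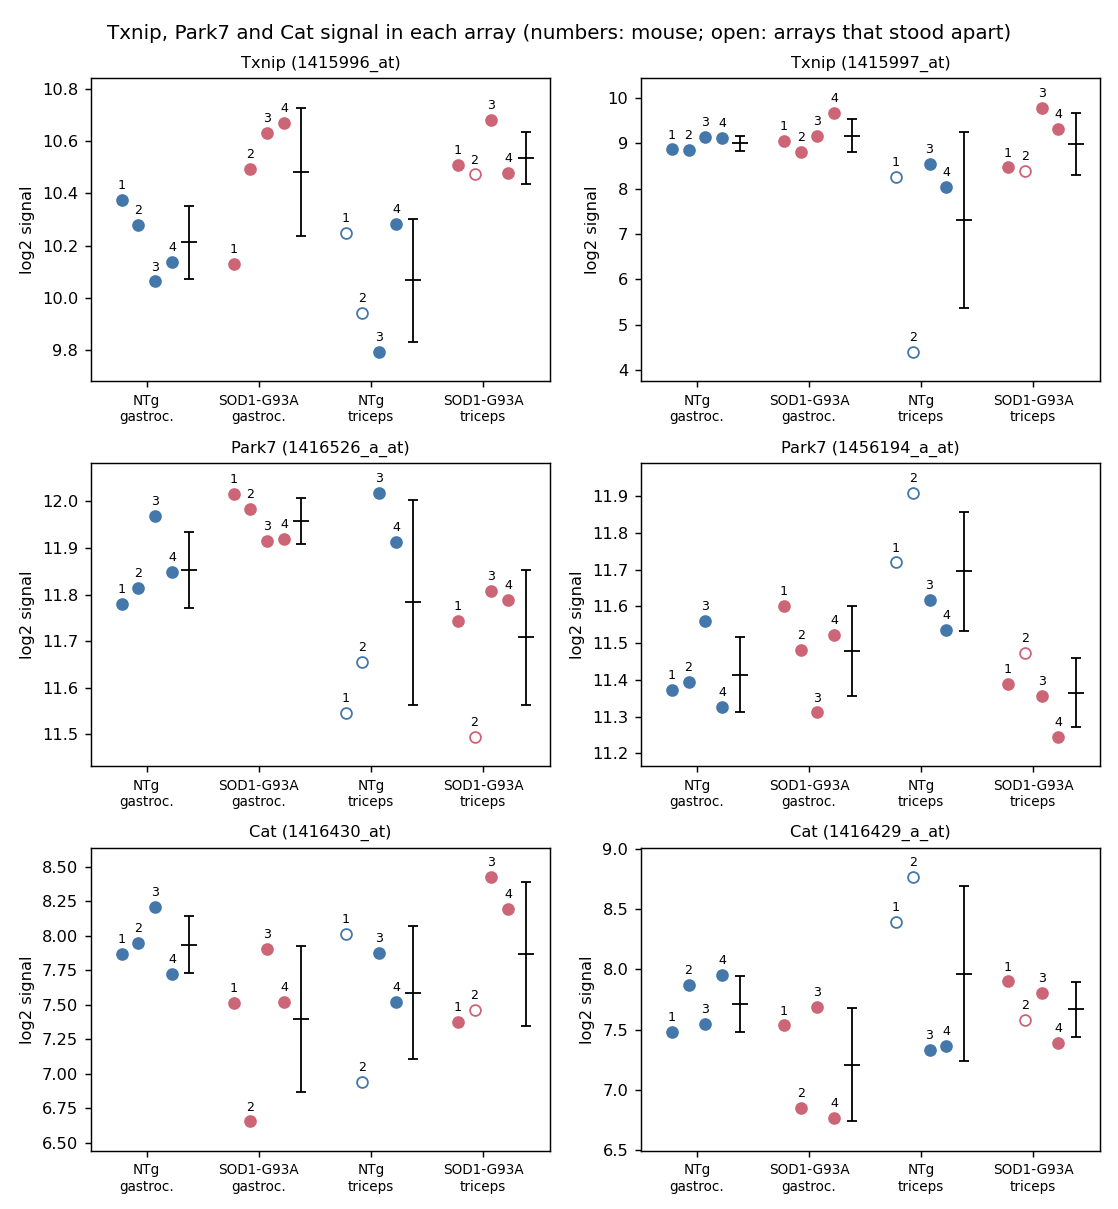
Log2 signal of both probe sets of Txnip, Park7 and Cat in each array by group (points numbered by mouse, with the group mean and SD beside them; open points are the triceps arrays that stood apart). The genotypes do not overlap in triceps on Txnip 1415996_at and Park7 1456194_a_at, and Txnip 1415997_at has a lone reading of 4.41.

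Gpx3, the secreted glutathione peroxidase of plasma, read higher in the transgenic group means of both muscles. SOD1-G93A minus NTg was 0.40 in gastrocnemius (SE 0.23), 0.42 in triceps (SE 0.23) and 0.41 over both (SE 0.16, 95% interval 0.06 to 0.76, limma unadjusted p = 0.023, adjusted p = 0.997). Leaving out single arrays moved the gastrocnemius value between 0.26 (without SOD1-G93A replicate 1) and 0.59 (without SOD1-G93A replicate 4). Without the 3 arrays it was 0.20 in triceps and 0.30 over both. The genotypes overlapped in each muscle, and the muscles stood much further apart than the genotypes did.

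The selenium enzymes Gpx1, of the cytosol, and Gpx4, which reduces lipid peroxides, had no called genotype difference. Gpx1 had 0.12 in gastrocnemius (SE 0.15) and 0.17 in triceps (SE 0.15), the latter -0.060 without the 3 arrays. In gastrocnemius Gpx4 1456193_x_at read 9.88, 10.18, 9.91 and 9.81 in NTg mice against 10.06, 10.53, 10.18 and 10.06 in transgenic mice. In triceps it read 10.30, 10.98, 10.02 and 10.15 in NTg mice against 9.83, 10.48, 9.91 and 10.17 in transgenic mice. The genotype difference was 0.26 in gastrocnemius and -0.27 in triceps, the latter -0.12 without the 3 arrays. Replicate 2 was the highest array in all 4 groups of this probe set, and the difference of effects was 0.53 (SE 0.27, limma unadjusted p = 0.0645, adjusted p = 0.999). It was 0.32 without NTg triceps replicate 2 and 0.38 without the 3 arrays. On the other Gpx4 probe set, 1451695_a_at, it was 0.14 (SE 0.17), or 0.30 without them.

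The peroxiredoxins are abundant thiol peroxidases that thioredoxin recharges. Prdx2, of the cytosol, had a genotype difference of 0.08 in gastrocnemius (SE 0.17) and -0.015 in triceps (SE 0.17), and Prdx3, of the mitochondria, 0.086 (SE 0.11) and 0.018 (SE 0.11). The triceps values were -0.25 for Prdx2 and -0.035 for Prdx3 without the 3 arrays. Prdx3 had the smallest spread within groups of the members, a pooled SD of 0.12, which puts its 95% interval over both muscles at -0.12 to 0.22. The cytosolic thioredoxin Txn1 likewise lay between -0.18 and 0.21 over both muscles, and its reductase Txnrd1 between -0.37 and 0.20. For Prdx3, Txn1 and Txnrd1 these intervals over both muscles reach no further than 0.37 in either direction. This bound does not cover Prdx2 or the differences within a muscle.

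Among the glutathione S-transferases, Gstp1 had 0.14 in gastrocnemius (SE 0.11) and -0.11 in triceps (SE 0.11), the latter -0.22 without the 3 arrays. Gstm1 had 0.20 and 0.30 in gastrocnemius and 0.39 and 0.34 in triceps on its probe sets 1416416_x_at and 1448330_at, with SEs from 0.24 to 0.26. Without the 3 arrays the Gstm1 triceps values were -0.10 and -0.22, a turn of direction. Both Gstm1 probe sets had their lowest reading in NTg triceps replicate 2. Genes of this family are close in sequence, and some probes may read more than 1 of them.

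The enzymes that make and recharge glutathione could hardly be measured. Gclc, the catalytic subunit of the rate-limiting step, read 4.83 to 5.97 and Gsr, glutathione reductase, 5.71 to 7.17 over the 16 arrays. Both had a mean below the minimum of 6.75 for testing. The same held for all probe sets of Glrx, Gpx7, Gpx8, Gstm4, Gstt1, Gstz1, Prdx4 and Txndc5, which makes 10 genes without a tested probe set.

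Between the muscles some members were called, though the members' median absolute difference was similar. It was 0.15 over both genotypes, beside 0.13 for the genotype difference over both muscles. Gastrocnemius minus triceps was called for 3 of 37 members over both genotypes (8.11%), beside 171 of 4637 probe sets (3.69%), and for 1 in NTg (beside 1.23% of all) and 1 in SOD1-G93A mice (beside 1.04%), Gpx3 in both. Gpx3 was lower, and Gsto1 and Prdx2 higher, in gastrocnemius. Without the 3 arrays 1 of 37 members, Gpx3, was called over both genotypes, beside 103 of all 4637. The members' median difference over both genotypes was 0.047, with 22 of 37 above 0, beside -0.0042 for all tested, and 0.026 with 19 above 0 without the 3 arrays. The direction was the same in 8 of 8 mice for 3 members (Gpx3 lower, Prdx2 1418506_a_at and Sod2 1417193_at higher), 8.11% beside 10.3% of all. The muscles did not overlap for 2 members in NTg, Gpx3 and Txnip 1415997_at (beside 6.69% of all), and for 4 in SOD1-G93A mice, these being Gpx3, Gsto1 1416531_at, Prdx2 1418506_a_at and Park7 1416526_a_at (beside 8.3%).

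Gpx3 1449106_at had the widest gap between the muscles of all tested members over both genotypes and in SOD1-G93A mice. In NTg the gap of Txnip 1415997_at, with its lone reading of 4.41, was wider (1.68, or 0.71 without the 3 arrays). NTg gastrocnemius read 8.87, 9.11, 8.82 and 9.42 and NTg triceps 10.13, 10.08, 10.11 and 10.90. SOD1-G93A gastrocnemius read 9.89, 9.34, 9.71 and 8.88 and SOD1-G93A triceps 10.82, 10.78, 11.01 and 10.30. Every triceps reading lay above every gastrocnemius reading, in both genotypes.

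Gpx3 was lower in gastrocnemius, with a difference of -1.25 in NTg (SE 0.23, limma adjusted p = 0.00522) and -1.27 in SOD1-G93A mice (SE 0.23, limma adjusted p = 0.00684). Over both genotypes the difference was -1.26 (SE 0.16, 95% interval -1.60 to -0.92, limma adjusted p = 7.24e-05), a 2.40-fold lower signal, with the same direction in 8 of 8 mice. Within single mice it ran from -1.48 to -0.93. It was -1.35 without the 3 triceps arrays and stayed called in all 24 alternative settings of each of the muscle comparisons. With the mouse as a fixed block, which uses the pairing, the adjusted p over both genotypes was 2.22e-06 (limma). The genotype differences of Gpx3 in gastrocnemius and triceps lay close together, the difference of effects being -0.020 (SE 0.32, interval -0.70 to 0.65), or 0.20 without the 3 arrays.

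Gsto1, a glutathione transferase of the omega class that reduces dehydroascorbate, was called on 1 of its 2 probe sets. On 1416531_at NTg gastrocnemius read 8.46, 8.46, 8.20 and 8.32 and NTg triceps 7.66, 6.98, 8.40 and 7.81. SOD1-G93A gastrocnemius read 8.61, 8.86, 8.47 and 8.37 and SOD1-G93A triceps 7.94, 7.82, 8.12 and 7.81. The muscles did not overlap in SOD1-G93A mice, and in NTg triceps replicate 3 lay among the gastrocnemius readings.

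The Gsto1 difference was 0.65 over both genotypes (SE 0.15, limma adjusted p = 0.0252), higher in gastrocnemius in 7 of 8 mice, and 0.65 in each genotype (SE 0.22). Without the 3 triceps arrays it was 0.44 over both genotypes (limma adjusted p = 0.0808), 0.25 in NTg (limma adjusted p = 0.752) and 0.62 in SOD1-G93A mice (limma adjusted p = 0.0982), and the NTg value was 0.40 without NTg triceps replicate 2 alone. The call was also lost when NTg gastrocnemius replicate 1 or 2, SOD1-G93A gastrocnemius replicate 2 or SOD1-G93A triceps replicate 2 was left out (limma adjusted p from 0.0537 to 0.0573). The second probe set, 1456036_x_at, had -0.12 (SE 0.24) over both genotypes and was lower in gastrocnemius in 5 of 8 mice, so the Gsto1 probe sets disagree on all 16 arrays. It had 0.27 without the 3 arrays.

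Prdx2 1418506_a_at read 9.45, 9.58, 9.69 and 9.50 in NTg gastrocnemius and 8.98, 8.75, 9.59 and 9.33 in NTg triceps. In SOD1-G93A mice it read 9.53, 9.75, 9.59 and 9.66 in gastrocnemius and 8.88, 8.95, 9.27 and 9.50 in triceps. It was higher in gastrocnemius in all 8 mice, by 0.44 over both genotypes (SE 0.12, limma adjusted p = 0.0471), just past the threshold. The difference was 0.26 without the 3 triceps arrays (limma adjusted p = 0.244), and it was called in 7 of 24 alternative settings. Among these was the mouse as a fixed block, which uses the pairing (limma adjusted p = 0.0272). The other Prdx2 probe set, 1430979_a_at, was too dim to test (mean 6.54) and was higher in gastrocnemius in 5 of 8 mice.

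**Figure D5:**
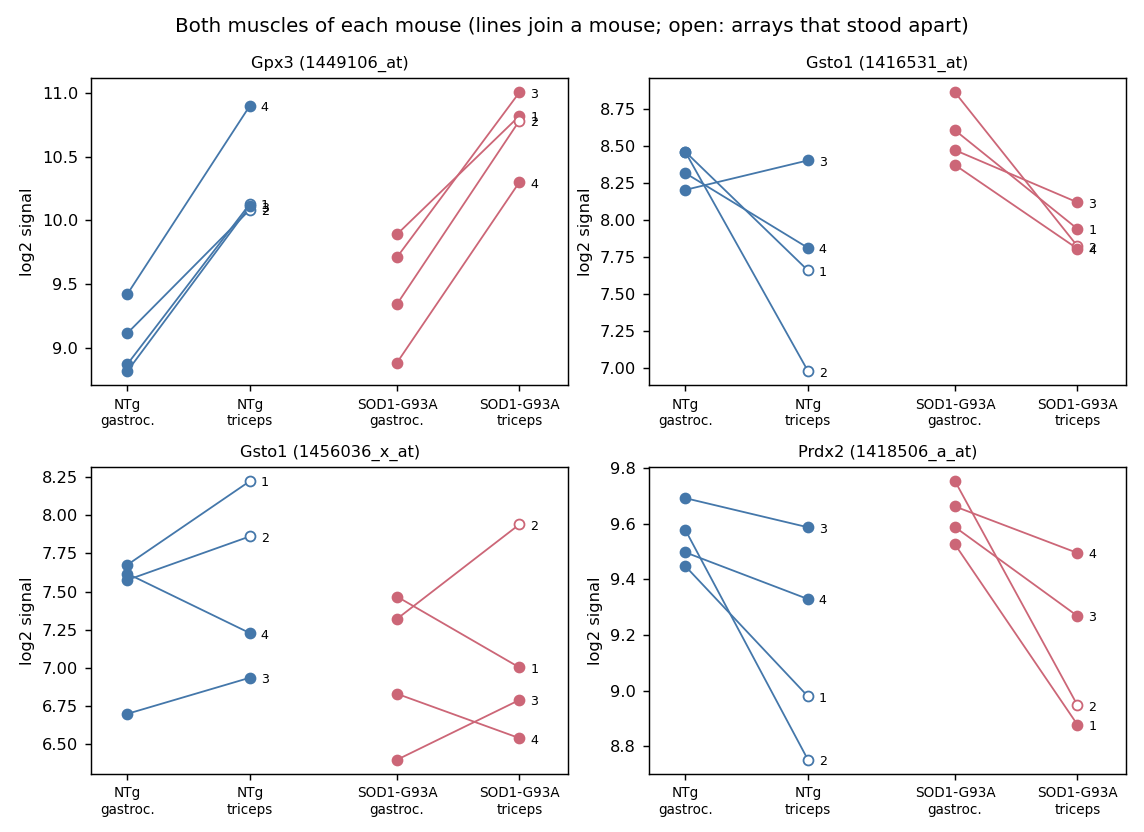
Log2 signal of Gpx3, both Gsto1 probe sets and Prdx2 in gastrocnemius and triceps of each mouse (lines join the muscles of a mouse, numbered; open points are the triceps arrays that stood apart). All 8 Gpx3 lines rise towards triceps, all 8 Prdx2 lines fall, and the Gsto1 probe sets differ in direction.

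Over all 16 arrays, of the 11 member genes with at least 2 tested probe sets, all probe sets of a gene had one direction for 10 genes in the gastrocnemius genotype comparison and for 6 in triceps. For the muscle difference over both genotypes 6 genes did, the exceptions being Glrx2, Gpx4, Gsto1, Park7 and Sod2. The median SD within groups was 0.30 for the members, from 0.12 to 1.05, against 0.28 for all tested probe sets.

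The wider redox list held 34 genes that are no members, with 49 probe sets of which 38 were tested. None of them was called in any genotype comparison (limma), with 2, 2, 2 and 0 at an unadjusted p under 0.05 in gastrocnemius, in triceps, over both muscles and for the difference of effects, beside 2.22%, 2.54%, 1.83% and 1.85% of all tested probe sets. The smallest p was that of Aox1, aldehyde oxidase, an oxidant source, at -0.60 in gastrocnemius (SE 0.17, limma unadjusted p = 0.00203). Nfe2l2, the regulator that binds antioxidant response elements, had -0.22 in gastrocnemius (SE 0.20) and -0.025 in triceps (SE 0.20), and its inhibitor Keap1 -0.020 and 0.0095 (SE 0.18). The triceps values of Nfe2l2 and Keap1 were 0.094 and -0.24 without the 3 arrays.

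Between the muscles 3 of the 38 were called over both genotypes, beside 3.69% of all tested probe sets, all higher in gastrocnemius, and 0 were lower. They were the mitochondrial NADPH sources Idh2 (1.14, SE 0.16, limma adjusted p = 0.000168) and Nnt (1.06, SE 0.26, limma adjusted p = 0.0285), and Glo1 1424109_a_at, glyoxalase (0.48, SE 0.09, limma adjusted p = 0.00458). The other Glo1 probe sets, 1424108_at and 1451240_a_at, had -0.14 (SE 0.12) and -0.35 (SE 0.22). When the 3 arrays were left out, Idh2 (0.91) and Glo1 1424109_a_at (0.44) were still called, Nnt was not (0.71, limma adjusted p = 0.144), and Glo1 1451240_a_at turned to 0.044.

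Fibre markers moved with muscle. Slow fibre markers were called higher in gastrocnemius in 15 of 16 tested probe sets, with a median difference of 4.71. Their summed linear signal was 25469 to 40332 in NTg and 17949 to 34484 in SOD1-G93A gastrocnemius, against 839 to 1765 and 1105 to 6299.5 in triceps. Fast fibre markers had 15 of 15 above 0 and 1 called (median 0.50), but without the 3 arrays, which were low in them, 9 of 15 lay above 0 (median 0.040), and in NTg 1 of 15 (median -0.09). All 4 tested Schwann cell probe sets (median 2.01) and 2 of 7 fibroblast probe sets (0.76) were called higher, and adipocyte (4 tested, median 0.04) and immune markers (3 tested, 0.27) had 0 called. Endothelial and erythroid markers, the latter with Hba-a2 alone, were too dim to test. With the 3 triceps arrays left out, slow fibre markers had 15 called (median 4.12), Schwann cell markers 4 (1.90) and fibroblast markers 1 (0.38), and the immune median was -0.07. The part of this fibre and cell makeup in the Gpx3, Gsto1 and Prdx2 differences was not tested.

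Between genotypes no marker was called. Fast fibre markers had 14 of 15 probe sets above 0 in gastrocnemius (median 0.21) and 15 of 15 in triceps (0.20), and slow fibre markers 1 of 16 (median -0.16) and 14 of 16 (0.77). Of the 3 arrays 2 are NTg and 1 SOD1-G93A, and without them fast fibre markers had 3 of 15 above 0 in triceps (median -0.046) and slow fibre markers 16 of 16 (0.67). Their part in the Txnip and Park7 values was not tested.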

How the data were processed

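Total RNA of each muscle was labelled from 4 ug and hybridised to an Affymetrix mouse array, per the labels' protocols. The authors deposited 1 log2 value per probe set and array, made with MAS5 per the submitters' processing notes (no version given). The base of the logarithm was read from the range of the values, -0.77 to 14.81, and neither the scaling nor the choice of these 7729 probe sets is stated in any source here. Array means after trimming differed by 1.06-fold at most, so the log2 values were used as deposited, and a planned pseudocount of 16 was not needed. Arrays give no depth, and their number limits the precision.

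Probe sets with a mean over the 16 arrays above the 40th percentile (6.75) entered the tests (4637). The fit was that of limma 3.58.1 (R 4.3.3), with group means and an intensity trend, and p-values were adjusted by Benjamini-Hochberg over all 4637. The spread of a probe set was estimated from all 4 groups together. A probe set was called at an adjusted p under 0.05. For the genotype difference over both muscles the mouse was a random block (correlation 0.18). The muscle differences and the difference of effects were fitted without a mouse term, so their SEs and intervals do not use the pairing. Replicate numbers were taken as mice because the series names 4 mice per genotype. The 2 muscles of a number correlated at 0.14 to 0.39 in their deviations from the group means, and in 8 of 8 cases best with their own number. Same-numbered arrays of different genotypes, so of different mice, correlated at 0.00 to 0.37. These correlations therefore cannot tell a shared mouse from a batch shared by number. The script was tested on simulated data.

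Symbols are those of the platform annotation, and all 52 members kept theirs in RefSeq. Of their probe sets 18 end in _a_at (transcripts of one gene), 6 in _x_at and 3 in _s_at, which may read several genes. Values by array are given for Sod1, the called members, the 3 smallest p-values of each genotype comparison and bright members of a role. Members, lists and tests were chosen with earlier results of these data known. The alternatives were quantile normalization, no filter or the 60th percentile, no intensity trend, array weights, other replicate blocks and each array left out. Leaving out the 3 arrays that stood apart, and a term for replicate numbers 1 and 2 against 3 and 4, were chosen after seeing the data.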

Additional observations from a re-analysis of the deposited data

Results flagged for a closer look

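In 11 of the 148 groups of 4 arrays tested (7.43%, where chance gives about 5%), 1 array lay far from the other 3. NTg triceps replicate 2 was that array for Txnip 1415997_at, at 4.41 where the others read 8.03 to 8.54, for Txn2 1452782_a_at, at 7.27 against 8.42 to 8.47, and for Gstk1, at 8.03 against 8.53 to 8.63. SOD1-G93A triceps replicate 2 stood high on 2 Glrx2 probe sets, at 8.73 on 1422998_a_at against 7.83 to 7.87 and at 8.69 on 1437679_a_at against 8.19 to 8.23. NTg triceps replicate 4 read 10.9 for Gpx3, against 10.08 to 10.13. SOD1-G93A gastrocnemius replicate 4 read 10.2 for Prdx3, against 10.01 to 10.05, and 6.77 for Txndc17 1423035_s_at, against 7.53 to 7.67. SOD1-G93A gastrocnemius replicate 1 read 8.53 for Txnl1 1436947_a_at, against 7.46 to 7.51. NTg gastrocnemius replicate 3 read 7.96 for Txndc9 1436951_x_at, against 7.78 to 7.80, and 6.70 for Gsto1 1456036_x_at, against 7.58 to 7.68.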

How the results depend on the processing

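Under every alternative tried, limma called 0 members in each of the 4 genotype comparisons. The muscle differences kept 1 called member in SOD1-G93A mice under all 24 alternatives, and in NTg the count ran from 1 to 2 when single arrays were left out, with Gsto1 added without NTg triceps replicate 3. Over both genotypes 3 members were called, 1 to 3 when single arrays were left out, and 1 without the 3 triceps arrays that stood apart. For Sod1 1451124_at, which was never called, the direction turned without these 3 arrays for the genotype difference in triceps (-0.096), for the difference of effects (0.27) and for the muscle difference in NTg (-0.052). The Sod1 difference of effects also turned with array weights (0.048) and ran from -0.35 to 0.12 when single arrays were left out. These turns come with fewer arrays or other weights, and the cause was not tested beyond that.

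With the mouse as a fixed replicate block, 0 members were called for the difference of effects, 1 in NTg, 1 in SOD1-G93A mice and 3 over both genotypes, as without it, while the count over all probe sets went from 171 to 318 over both genotypes. With the replicate number as a block, or no replicate block over both muscles, 0 members were called between genotypes. Same-numbered arrays of different genotypes correlated at 0.00 to 0.37, not all above 0.1, so numbers were not taken to pair the genotypes. The replicate set as a fixed term gave 436 calls between the muscles, and leaving out the 3 arrays 103. With 4 mice per group a member's difference within a muscle had a median SE of 0.21, and 15 dim probe sets were not tested.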
